A study of Mus musculus with 14 samples.

Results

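The genes described are 10 genes of mural cells and of the smooth muscle contractile apparatus: Acta2, Tagln, Myh11, Cnn1, Des, Pdgfrb, Rgs5, Kcnj8, Cspg4 and Mcam. They were taken as a named list, and each symbol matched 1 gene identifier of the count table, so that they make up 10 of its 47729 genes. A filter on low counts kept 9 of the 10 for testing, among 15015 genes in all, and Cnn1 did not pass it. Mural cells are the pericytes and smooth muscle cells that wrap the endothelial tube of blood vessels. Endothelial cells recruit them by secreting PDGF-BB, which binds the receptor PDGFRB on the mural cell. Their contractile proteins are encoded by genes that serum response factor (SRF) activates together with cofactors of the myocardin family, through a promoter element called the CArG box. None of the genes belongs to mural cells alone. Desmin is also made in skeletal muscle and its stem cells, and smooth muscle actin is also made in myofibroblasts.

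The RNA came from cells released from the knee joints of C57BL6 mice aged 16 weeks and sorted as negative for TER119, CD31 and CD45 and positive for CD51, a gate meant to leave out red cells, endothelium and leukocytes and to keep cells bearing integrin alpha V. CD200+ CD105- cells were taken from mice without immunization, which received only phosphate buffered saline (4 libraries, 1 to 4, "non-immunized CD200+"). They were also taken from mice with antigen-induced arthritis (5 libraries, 5 to 9, "arthritic CD200+"), which were immunized with methylated bovine serum albumin in complete Freund's adjuvant and then received the same protein in the joint. CD200- CD105+ cells came from arthritic mice only (5 libraries, 10 to 14, "CD105+"). Each sample held 200 to 500 cells, collected on day 10 after the joint injection. The labels do not say how many mice gave a sample or whether the CD200+ and CD105+ samples came from the same mice, so p-values measure the spread between these samples only. No group of CD105+ cells from non-immunized mice was analysed here.

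Counts assigned to genes ranged from 2919666 to 18553803 per library, after spike-in RNA that took 20.3% to 92.0% of all counts. Detected genes numbered 9772 to 18208 per library. Levels are given as CPM, the counts of a gene scaled to a common library size. A count of 3 corresponded to 0.171 CPM in the deepest library and to 0.910 CPM in the shallowest (library 6), and a value of 0 allows a level up to that limit, counting error only. Cd200, the gene of the sorting marker, was at 318 to 796 CPM in the CD200+ libraries, at 11.5 CPM in library 12 and at 0 in the other 4 CD105+ libraries. Eng, which encodes CD105, was at 0 to 12.2 CPM in the CD200+ libraries and at 0 to 11.1 CPM in the CD105+ libraries, with overlapping ranges. Within arthritis its mean was 6.60 ± 4.85 CPM in CD105+ and 0.502 ± 0.582 CPM in CD200+ cells (SD, n = 5 each), with an edgeR adjusted p of 0.170, and DESeq2 called it higher in CD105+ cells. The populations also differed in markers of other cell types. The summed level of 7 osteoblast genes was 22300 to 114300 CPM in the CD200+ libraries and 5.25 to 167 CPM in the CD105+ libraries, whereas that of 9 erythroid genes was 27180 to 247100 CPM in the CD105+ libraries and at most 10360 CPM in the CD200+ libraries. The summed level of 7 leukocyte genes was 0 to 207 CPM in the CD200+ libraries and 4665 CPM in library 11, of which Lyz2, a myeloid gene, made up 4537 CPM, and at most 22.4 CPM in the other 4 CD105+ libraries. The part of these other cells in the results below was not tested.

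The summed level of the 10 genes was lowest in CD105+ cells. With edgeR, Des was called lower there against both CD200+ groups, and Tagln against the arthritic CD200+ group only. The summed level of the 10 was 720 to 1438 CPM in the non-immunized CD200+ libraries (median 1002) and 624 to 1914 CPM in the arthritic CD200+ libraries (median 1636). In the CD105+ libraries the sum was 3.77 to 345 CPM (median 56.3), below every CD200+ library. The sum mostly follows the genes with the highest levels. In arthritic CD200+ cells the means of Acta2, Tagln, Des and Pdgfrb were 824, 237, 180 and 98.4 CPM. No other mean of the 10 exceeded 52.8 CPM there. Mcam did not go with the sum, at a mean of 9.41 CPM in CD105+ and 6.74 CPM in non-immunized CD200+ cells. The number of the 10 genes with any count was 7 to 8 in the non-immunized CD200+ libraries, 4 to 10 in the arthritic CD200+ libraries and 1 to 8 in the CD105+ libraries. In bulk samples of this kind, fewer cells of a type and less RNA per cell cannot be told apart.

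**Figure D1:**
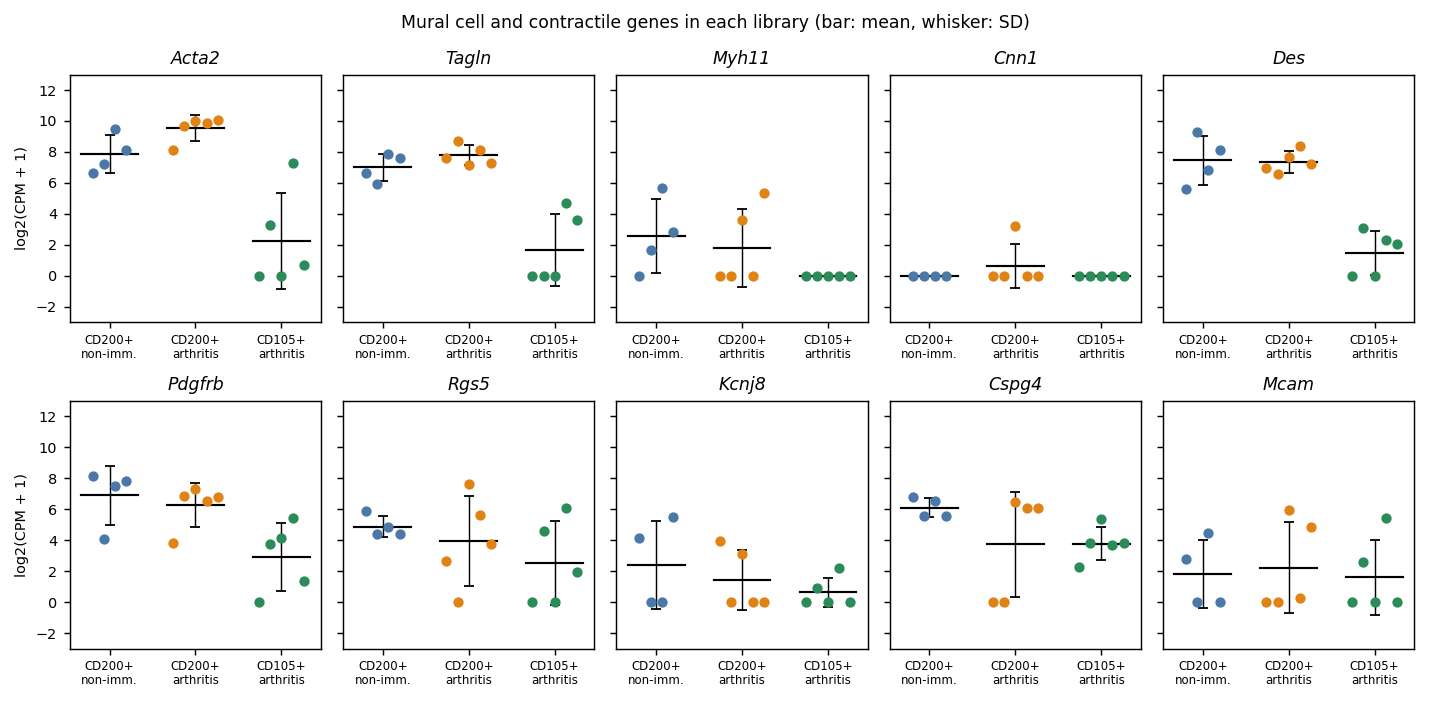
Level of each of the 10 genes in every library, as log2(CPM + 1) on the vertical axis, with 1 panel per gene and 1 point per library by group; the horizontal bars mark group means on that scale. Tagln and Des were higher in all 9 CD200+ libraries than in any CD105+ library, Acta2 was so except in library 13 (152 CPM, above libraries 1 and 2), and Rgs5, Mcam and Kcnj8 were scattered in every group.

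Acta2 encodes smooth muscle alpha-actin, the actin of contractile filaments in smooth muscle and pericytes (ENSMUSG00000035783, chr19:34241090-34255590, minus strand, GRCm38). Its level was 100.2, 148, 725 and 275 CPM in the non-immunized CD200+ libraries. It was 277, 799.7, 1037, 929 and 1077 CPM in the arthritic CD200+ libraries. In the CD105+ libraries it was 0, 8.60, 0, 152 and 0.588 CPM. All CD105+ libraries lay below all arthritic CD200+ libraries, while library 13 (152 CPM) lay above 2 of the 4 non-immunized CD200+ libraries. Library 13 alone held 94.3% of the Acta2 signal of the CD105+ group, whose mean was 32.2 ± 66.9 CPM (SD, n = 5) with it and 2.30 CPM without it. In arthritis the fitted log2 difference between CD105+ and CD200+ cells was -4.67 (SE 1.65), with an adjusted p of 0.0825 from edgeR, above the threshold of 0.05. Without library 13 the log2 difference was -8.42 with an adjusted p of 0.00765 from edgeR, so that 1 library decided this call. Against non-immunized CD200+ cells the log2 difference was -3.27 (SE 1.58, edgeR adjusted p = 0.187), and without library 13 it was -7.02 (edgeR adjusted p = 0.0127). Between the CD200+ groups, the mean was 824 ± 324 CPM (SD, n = 5) in arthritis and 312 ± 285 CPM (SD, n = 4) without immunization. That difference of 1.40 on the log2 scale (SE 1.55) had an adjusted p of 1 from edgeR, and the groups overlapped. Reads of Acta2 may be shared with the near-identical actins Acta1 and Actg2, so its level carries that uncertainty.

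Because SRF acts through CArG boxes, the promoters of the genes were searched for the element, allowing 1 mismatch and reading both strands. The promoters were taken from RefSeq (GRCm38.p6), from 250 bases before to 50 bases after each start, and 7 of the 10 genes had one there. Tagln, Myh11 and Pdgfrb had none and were not searched. Acta2, Kcnj8 and Cspg4 held a match and the other 4 promoters (Rgs5, Des, Mcam and Cnn1) held none, while 21.1% of all 32851 promoters held one. No promoter of the 7 held an exact match, against 1.63% of all promoters. The matches are shown with 10 bases on each side, with the element in capitals and on the strand of the gene, since they are the stretches on which the search turned. In Acta2 they begin 84 and 34 bases before the start site, in Kcnj8 46 and in Cspg4 238 bases before it, where a second match overlaps the one shown. The start sites are those of RefSeq, and the RefSeq start of Acta2 lies inside the GENCODE span of the gene given above, so that both Acta2 matches also lie within that span. The windows lie at chr19:34255438-34255467 and chr19:34255388-34255417 (minus strand), chr6:142571641-142571670 (minus strand) and chr9:56864856-56864885 (plus strand).
Acta2 far match: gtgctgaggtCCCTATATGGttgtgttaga
Acta2 near match: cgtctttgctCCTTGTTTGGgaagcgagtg
Kcnj8 match: gagcagcgagCCTTTTAAAGatgtgtgtgc
Cspg4 match: tgtcccaaacCCTTAAAATGgggcatgggt
A match describes the letters of the window and says nothing of binding. Whether a match goes with the level of a gene was not tested.

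Tagln encodes transgelin (SM22 alpha), an actin-binding protein of smooth muscle (ENSMUSG00000032085, chr9:45929619-45936058, minus strand). It was at 98.3, 61.0, 231 and 191 CPM in the non-immunized CD200+ libraries. In the arthritic CD200+ libraries the values were 193, 421, 142, 275 and 155 CPM. The CD105+ libraries held 0, 0, 0, 25.2 and 11.3 CPM, so that every CD105+ library lay below every CD200+ library. In arthritis Tagln fell by 5.01 on the log2 scale (SE 1.51) from CD200+ to CD105+ cells, a 32.2-fold lower level with an adjusted p of 0.0469 from edgeR. This call was close to the threshold and held in only 1 of 10 fits that left out 1 library, with adjusted p from 0.0359 (without library 13) to 0.0884. It was also lost with spike-in library sizes (edgeR adjusted p = 0.235), without the low-count filter, with only the groups compared and without the libraries over 80% spike-ins. The log2 difference from non-immunized CD200+ cells was -4.30 (SE 1.49, edgeR adjusted p = 0.0697). Between the CD200+ groups it was 0.71 (SE 1.37, edgeR adjusted p = 1), with overlapping values. Exons of Tagln share 1241 bases (62.4%) with Gm48529 and 108 (5.43%) with Pcsk7, both on the opposite strand. No source used here states whether the counting took strand into account, so reads of the overlapping genes cannot be told apart, and Pcsk7 had counts in 9 libraries.

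Myh11 encodes smooth muscle myosin heavy chain, the motor protein of mature smooth muscle. Its level was 0, 2.23, 50.2 and 6.02 CPM in the non-immunized CD200+ libraries. In the arthritic CD200+ libraries it was 0, 0, 11.3, 0 and 39.7 CPM, and all 5 CD105+ libraries were at 0. Myh11 was thus at 0 in 4 of the 9 CD200+ libraries as well, and each CD200+ group drew most of its level from 1 library. With the counts of each group pooled, and 3 counts over the CD105+ group (0.0477 CPM) as its limit, Myh11 was at least 314-fold lower than in arthritic CD200+ cells and at least 343-fold lower than in non-immunized CD200+ cells. Without the highest CD200+ library these bounds were 86.7 and 60.9. The edgeR adjusted p was 0.0825 in arthritis and 0.0686 against non-immunized cells, so neither comparison passed with edgeR. DESeq2 called Myh11 lower in both comparisons and limma voom in arthritis only, and both tools called more of all genes than edgeR.

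Cnn1, which encodes the smooth muscle calponin, had counts in library 7 only. That arthritic CD200+ library held 109 counts or 8.19 CPM, and the other 13 libraries were at 0. With counts pooled in the same way, the pooled level of the arthritic CD200+ group was at least 38.9-fold that of non-immunized CD200+ cells. It was at least 43.8-fold that of CD105+ cells, and both bounds rest on library 7 alone. Fitted without the low-count filter, neither difference passed (edgeR adjusted p = 0.453 and 0.202).

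Des encodes desmin, the intermediate filament of muscle cells and pericytes (ENSMUSG00000026208, chr1:75360329-75368579, plus strand). Its level was 47.1, 614, 114 and 284 CPM in the non-immunized CD200+ libraries. In the arthritic CD200+ libraries it was 122, 93.1, 203, 336 and 147 CPM. It was 0, 7.64, 0, 3.86 and 3.09 CPM in the CD105+ libraries, each of which lay below each CD200+ library. From arthritic CD200+ to CD105+ cells Des fell by 5.91 on the log2 scale (SE 1.22), a 60.3-fold lower level with an adjusted p of 0.00844 from edgeR. Against non-immunized CD200+ cells it fell by 6.47 (SE 1.27), an 88.4-fold lower level with an edgeR adjusted p of 0.00562. These calls held in all 10 and all 9 fits that left out 1 library. They were lost when library sizes were set by the spike-in RNA, with edgeR adjusted p of 0.0923 and 0.128. Arthritic and non-immunized CD200+ cells overlapped, with a log2 difference of -0.55 (SE 1.04, edgeR adjusted p = 1).

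Markers of skeletal muscle stem cells, which also make desmin, were lower in CD105+ cells as Des was, and other muscle genes were not all lower there. Pax7, their defining transcription factor, was at 102 to 502 CPM in the non-immunized and at 119 to 420 CPM in the arthritic CD200+ libraries and at 0 in all 5 CD105+ libraries. Myf5, a muscle lineage factor, was at 63.6 to 167 CPM in the non-immunized and at 75.3 to 141 CPM in the arthritic CD200+ libraries, and also at 0 in all CD105+ libraries. Over the whole list of 15 skeletal muscle genes the sum was 225 to 931 CPM, 464 to 1416 CPM and 73.8 to 186 CPM in the non-immunized CD200+, arthritic CD200+ and CD105+ libraries. Of the 15, 8 were at 0 throughout the CD105+ group (Myh1, Myh4, Myh2, Myl1, Tnnc2, Ckm, Myf5 and Pax7) and 2 (Myh1 and Myh2) throughout the non-immunized group. With edgeR, 5 of the 12 tested were lower in CD105+ cells in arthritis (Myl1, Tnnc2, Myf5, Myod1 and Pax7) and 4 against non-immunized CD200+ cells (Myl1, Myf5, Myod1 and Pax7). Over all genes 6.48% and 7.63% were called lower. The same direction was not particular to muscle genes, since all 7 osteoblast genes were called lower in both comparisons. Mylpf, a fast muscle myosin light chain, had the opposite order, at 57.1 to 186 CPM in the CD105+ libraries and 0 to 12.6 CPM in the CD200+ libraries, and made up most of the CD105+ sum. Its log2 difference in arthritis was 4.79 (SE 1.82, edgeR adjusted p = 0.104), and DESeq2 and limma voom called it higher. The part of muscle cells in the Des result was not tested.

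**Figure D2:**
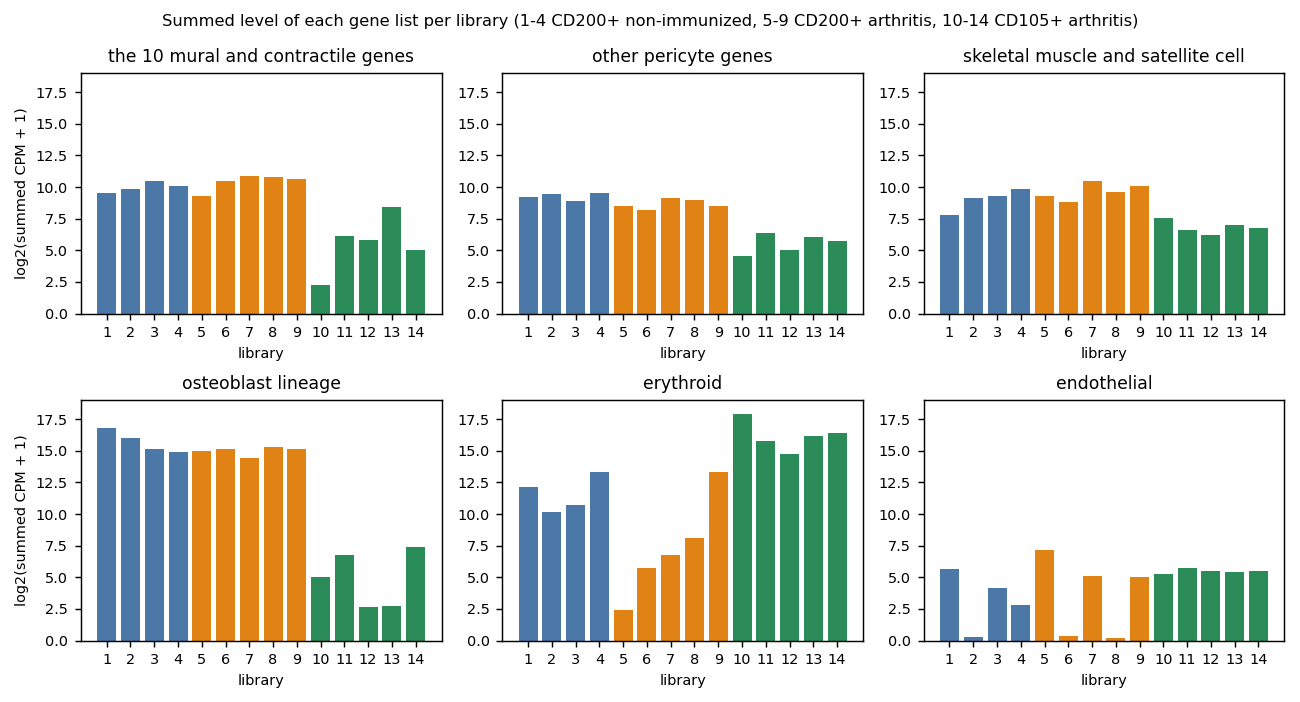
Summed level of the 10 genes and of the further pericyte, skeletal muscle, osteoblast, erythroid and endothelial lists, as log2(summed CPM + 1). Each list has 1 panel, with 1 bar per library coloured by group. The summed level of the 10 genes lay at 3.77 to 345 CPM in the CD105+ libraries, below all CD200+ libraries, and the summed skeletal muscle list was also lowest there, at 73.8 to 186 CPM.

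Pdgfrb encodes the PDGF-BB receptor through which mural cells are recruited, and is also expressed by fibroblasts. It was at 287, 15.8, 180.1 and 229 CPM in the non-immunized CD200+ libraries. The arthritic CD200+ libraries held 12.9, 116, 159.6, 93.1 and 111 CPM, and the CD105+ libraries 0, 12.3, 16.9, 41.7 and 1.54 CPM. The lowest library of each CD200+ group (libraries 2 and 5, both with over 80% spike-in RNA) reached into the CD105+ range, so the groups overlapped. In arthritis the log2 difference between CD105+ and CD200+ cells was -2.76 (SE 1.12, edgeR adjusted p = 0.128). From non-immunized CD200+ cells the difference was -3.61 (SE 1.19), with an edgeR adjusted p of 0.0596. Between the CD200+ groups it was -0.85 (SE 1.11, edgeR adjusted p = 1). The summed level of 7 fibroblast genes was 6239 to 10390 CPM, 1194 to 9076 CPM and 1357 to 3566 CPM in the non-immunized CD200+, arthritic CD200+ and CD105+ libraries, none of the 7 was at 0 in any group, and their part in the Pdgfrb levels was not tested.

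Rgs5, a regulator of G protein signalling used as a pericyte marker, did not separate the groups. It was at 57.0, 20.1, 27.9 and 20.02 CPM in the non-immunized CD200+ libraries. In the arthritic CD200+ libraries it was at 5.44, 0, 198, 47.5 and 12.8 CPM, and in the CD105+ libraries at 0, 23.1, 0, 65.5 and 2.79 CPM. Library 7 held 75.1% of the arthritic CD200+ signal, and library 13 held 71.7% of the CD105+ signal. The log2 difference between CD105+ and arthritic CD200+ cells was -1.53 (SE 1.67, edgeR adjusted p = 0.628), and without library 7 it was 0.15. Between the CD200+ groups the log2 difference was 0.76 (SE 1.76, edgeR adjusted p = 1) and turned to -0.92 without library 7. The difference of CD105+ from non-immunized CD200+ cells was -0.77 (SE 1.72, edgeR adjusted p = 0.810).

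Kcnj8 encodes Kir6.1, the pore subunit of the ATP-sensitive potassium channel of pericytes and vascular smooth muscle. It was at 16.6, 0, 0 and 43.9 CPM in the non-immunized CD200+ libraries. Its arthritic CD200+ values were 14.1, 0, 7.52, 0 and 0 CPM, and its CD105+ values 0, 0.896, 0, 3.52 and 0 CPM. It was thus at 0 in libraries of every group. The log2 difference was -2.25 (SE 2.40, edgeR adjusted p = 0.618) between CD105+ and CD200+ cells in arthritis. It was -4.06 (SE 2.64, edgeR adjusted p = 0.345) against non-immunized CD200+ cells, and -1.81 (SE 2.45, edgeR adjusted p = 1) between the CD200+ groups.

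Cspg4 encodes NG2, a proteoglycan on the surface of pericytes that is also found on other mesenchymal progenitors. It was at 108, 46.5, 89.5 and 46.7 CPM in the non-immunized CD200+ libraries. In the arthritic CD200+ libraries it was at 0, 0, 85.6, 67.9 and 66.2 CPM, and in the CD105+ libraries at 3.77, 12.8, 39.4, 12.1 and 12.9 CPM. Every CD105+ library held some Cspg4, which was the only 1 of the 10 genes of which this was true, and every CD105+ value lay below every non-immunized CD200+ value. The arthritic CD200+ libraries at 0 were libraries 5 and 6, both with over 80% spike-in RNA. The log2 difference was -1.44 (SE 1.28, edgeR adjusted p = 0.534) between CD105+ and CD200+ cells in arthritis. It was -2.17 (SE 1.35, edgeR adjusted p = 0.321) against non-immunized CD200+ cells, and -0.73 (SE 1.32, edgeR adjusted p = 1) between the CD200+ groups.

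Mcam encodes CD146, an adhesion molecule of pericytes and smooth muscle that endothelial cells also carry. It was at 5.78, 0, 21.2 and 0 CPM in the non-immunized CD200+ libraries. The values were 0, 0, 61.6, 0.204 and 27.3 CPM in the arthritic CD200+ libraries and 0, 5.14, 0, 41.9 and 0 CPM in the CD105+ libraries. The groups overlapped, and 1 library held most of the signal in each. It was library 3 in the non-immunized CD200+ group (78.5%), library 7 in the arthritic CD200+ group (69.2%) and library 13 in the CD105+ group (89.1%). The log2 difference was -0.92 (SE 2.37, edgeR adjusted p = 0.859) between CD105+ and CD200+ cells in arthritis. It was 0.48 (SE 2.52, edgeR adjusted p = 0.926) against non-immunized CD200+ cells and 1.40 (SE 2.59, edgeR adjusted p = 1) between the CD200+ groups. Without library 7 the first of these turned to 0.47, and without library 13 the second turned to -2.36. The summed level of 10 endothelial genes was 0.186 to 49.1 CPM, 0.136 to 141 CPM and 36.4 to 51.6 CPM in the non-immunized CD200+, arthritic CD200+ and CD105+ libraries. Cldn5 was at 0 throughout the non-immunized group, Tie1 throughout the arthritic CD200+ group and both throughout the CD105+ group. Egfl7 and Vwf, both made by endothelium, were higher in every CD105+ library (15.8 to 32.8 and 11.1 to 22.7 CPM) than in any CD200+ library (0 to 15.5 and 0 to 6.97 CPM). Neither passed with edgeR in arthritis (adjusted p = 0.529 and 0.429), while limma voom called both higher. The endothelial list did not move as 1 set. Of its 7 genes tested, 4 had log2 differences below 0 in arthritis (Cdh5, Kdr, Tek and Esam) and 3 above, none called by edgeR. Vwf was also listed here as a gene of megakaryocytes and platelets. The part of endothelial RNA in the Mcam levels was not tested.

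The comparison of CD105+ with CD200+ cells in arthritis asks how the sorted populations differ. In it 2 of the 9 genes tested passed, Des and Tagln, both lower in CD105+ cells, where 11.3% of all 15015 genes tested passed in either direction, 6.48% as lower and 4.79% as higher. The count was 0 with spike-in library sizes, 4 with DESeq2 and 5 with limma voom. The shares over all genes given here are those of the main edgeR fit. DESeq2 and limma voom also called more of all genes, and spike-in sizes fewer, so their counts have another background, given under the processing below. All 9 fitted log2 differences were below 0, as were 51.2% of all genes. The median was -2.76 for the 9 genes and -0.05 for all genes. In Acta2, Des and Tagln (3 of 9) the groups did not overlap, with CD105+ lower, which held for 6.33% of all genes. None of the 9 had CD105+ higher without overlap, against 10.4% of all genes.

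Against non-immunized CD200+ cells, Des alone passed (1 of 9), lower in CD105+ cells, where 13.2% of all genes passed in either direction, 7.63% as lower and 5.57% as higher. The count was likewise 0 with spike-in library sizes, 4 with DESeq2 and 5 with limma voom, all lower in CD105+ cells. DESeq2 called Pdgfrb, Des, Myh11 and Tagln, and limma voom called Pdgfrb, Acta2, Des, Cspg4 and Tagln. Here too DESeq2 and limma voom called more of all genes than the main edgeR fit, and spike-in sizes fewer. Fitted log2 differences were below 0 for 8 of the 9, all but Mcam, and for 54.5% of all genes. The median was -3.61 for the 9 genes and -0.24 for all genes. Des, Tagln and Cspg4 (3 of 9) did not overlap, with CD105+ lower, against 11.5% of all genes, and none did with CD105+ higher, against 12.5% of all genes. This comparison crosses population and disease, and it shares the CD105+ libraries with the one in arthritis, so the agreement between the lists of genes is not separate evidence.

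Mice with antigen-induced arthritis and mice without immunization were compared within CD200+ cells. In this comparison, immunization with adjuvant and disease of the joint cannot be told apart. None of the 9 genes passed the edgeR test, none had an unadjusted p under 0.05, and none passed with DESeq2 or limma voom. Across all genes the background was also 0.0% with edgeR (0 of 15015, lowest adjusted p 0.636), with 915 genes at an unadjusted p under 0.05, 343 genes called by DESeq2 and 4 by limma voom. Of the 9 genes, 5 had log2 differences below 0, as did 54.2% of all genes. The median was -0.52 for the 9 genes and -0.10 for all genes. None had groups that did not overlap, against 1.18% of all genes with arthritis lower and 1.11% with it higher. The standard errors of the 9 differences ran from 1.04 for Des to 2.59 for Mcam on the log2 scale, so that sizeable changes in either direction were not detectable with these samples.

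**Figure D3:**
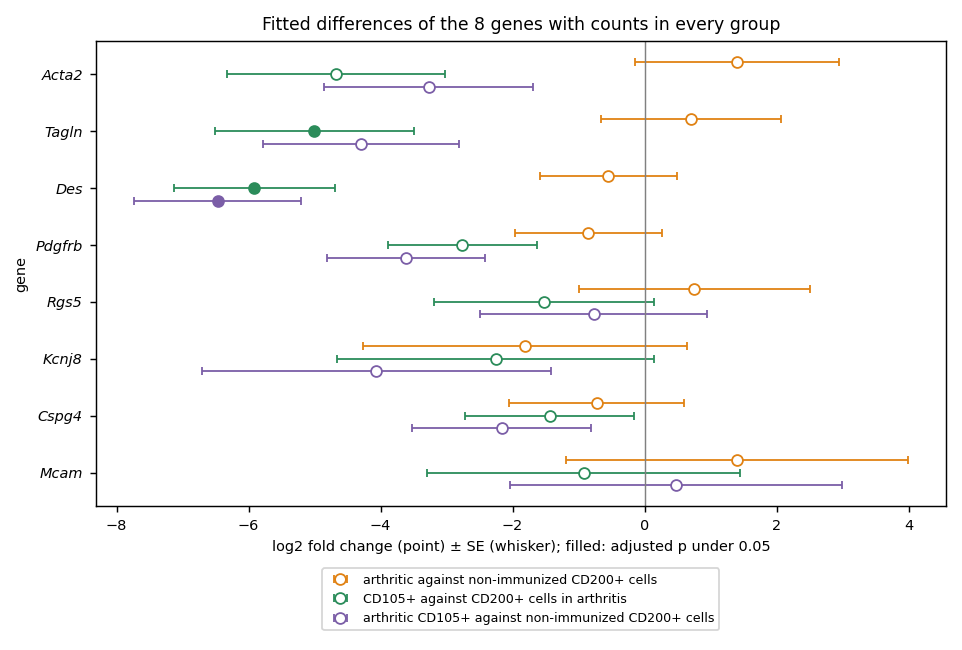
Fitted log2 differences in the 3 comparisons for the 8 genes that had counts in every group, with bars of 1 SE on each side and filled points where the edgeR adjusted p was below 0.05. Des was past the threshold in both comparisons of CD105+ cells and Tagln in the one within arthritis, while all differences between the CD200+ groups had an adjusted p of 1.

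Levels of different genes were set side by side per kilobase of exon. In non-immunized CD200+ cells Acta2 led at 142 ± 130 CPM per kilobase (SD, n = 4), followed by Tagln at 73.1 ± 39.8 and Des at 70.5 ± 67.5. Pdgfrb came next at 32.5 ± 21.3, and Rgs5, Cspg4, Kcnj8, Mcam and Myh11 followed at 6.88, 6.10, 5.94, 2.01 and 1.92. Of the steps between neighbours in this order, the one from Pdgfrb to Rgs5 alone was larger than the SD of both genes. Arthritic CD200+ cells had the same leading order, Acta2 at 375 ± 148, Tagln at 119 ± 57.9, Des at 48.0 ± 25.6 and Pdgfrb at 18.0 ± 9.80 CPM per kilobase (SD, n = 5), and there the steps between these 4 exceeded both SDs. In single libraries the order could differ, since in non-immunized library 1 Pdgfrb stood at 52.3 CPM per kilobase, above Tagln at 49.5 and Acta2 at 45.6. In CD105+ cells Acta2 stood at 14.7 ± 30.5 CPM per kilobase and Des at 0.778, and no step between neighbours exceeded the SDs.

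**Figure D4:**
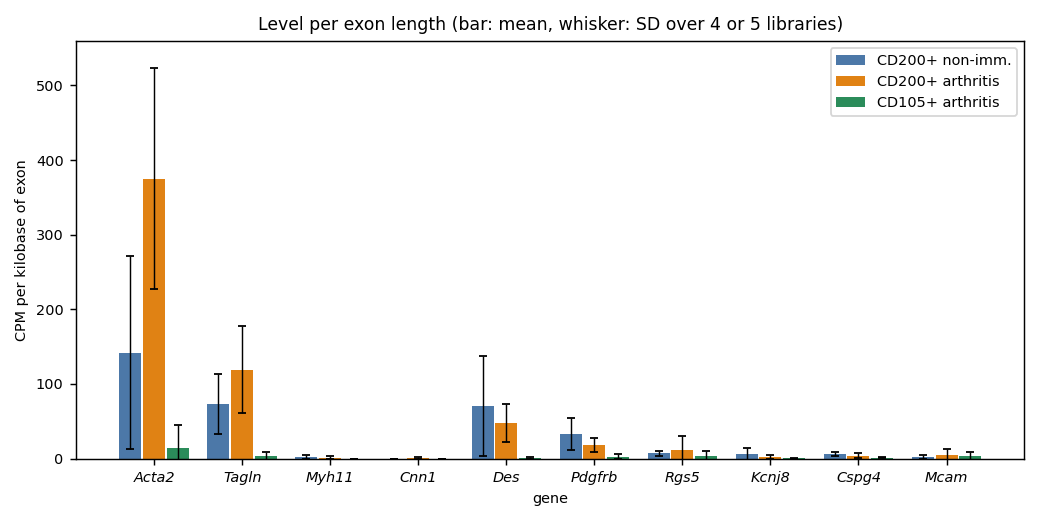
Mean level of each gene in CPM per kilobase of exon, with the groups as bars side by side for each gene and whiskers of 1 SD over libraries that are cut at 0. Acta2, Tagln, Des and Pdgfrb led in this order in both CD200+ groups, and in CD105+ cells no gene exceeded 14.7 CPM per kilobase.

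Further genes of the same cells and pathways were counted by list. Of 12 further pericyte markers 10 were tested, and Heyl, Vtn and Notch3 were lower in CD105+ cells in both comparisons with edgeR, which called none higher. That is 3 of 10, beside 6.48% of all genes called lower in arthritis and 7.63% against non-immunized CD200+ cells. DESeq2 called 5 and 7 of the list lower, and limma voom 4 and 7. Both tools also called more of all genes than edgeR, so the edgeR shares are not the background of these counts. In arthritis limma voom also called 1 higher, Anpep, at 1.24 ± 1.16 CPM in CD105+ and 0.161 ± 0.360 CPM in CD200+ cells (SD, n = 5 each). Heyl, a Notch target, was at 212 ± 144 CPM (SD, n = 4) in non-immunized and 159.7 ± 103 CPM (SD, n = 5) in arthritic CD200+ cells and at 0 in all CD105+ libraries. In arthritis this was at least 4004-fold lower, with an edgeR adjusted p of 0.000187. Notch3, a Notch receptor listed here as a pericyte marker, was at 145 ± 84.2, 89.3 ± 25.3 and 1.09 ± 2.11 CPM (SD, n = 4, 5 and 5). It fell by 6.29 on the log2 scale (SE 1.33, edgeR adjusted p = 0.00955) from CD200+ to CD105+ cells in arthritis. Vtn, which encodes vitronectin, was at 18.4 ± 20.2 and 48.4 ± 32.8 CPM in the CD200+ groups (SD, n = 4 and 5) and at 0 in all CD105+ libraries (edgeR adjusted p = 0.00768 in arthritis). The list's median log2 difference was -2.33 in arthritis and -3.97 against non-immunized CD200+ cells, beside -0.05 and -0.24 for all genes. In arthritis 7 of the 10 differences were below 0 and 3 above, those of Anpep (3.03), Cox4i2 (1.61) and Tbx18 (1.23). The part of muscle stem cells and other cells in these levels was not tested. Between the CD200+ groups none of the 10 passed with edgeR, DESeq2 or limma voom, and none had an unadjusted p under 0.05.

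Of 16 further contractile genes, all tested, 2 were lower in CD105+ than in CD200+ cells in arthritis (Cald1 and Synpo2) and 3 against non-immunized CD200+ cells (Tpm1, Cald1 and Cnn2) with edgeR, none higher. Over all genes the shares called lower were 6.48% and 7.63%. DESeq2 called 7 and 9 of the 16 lower, and limma voom 10 and 9, but these tools also called more of all genes than edgeR did. Cald1, the actin-binding regulator caldesmon, was at 291 ± 91.5, 246 ± 69.1 and 23.7 ± 15.8 CPM (SD, n = 4, 5 and 5). It fell by 3.37 on the log2 scale in arthritis (SE 0.531, edgeR adjusted p = 0.00173). Synpo2, an actin-bundling protein of smooth and striated muscle, was at 17.1 ± 10.3, 72.2 ± 88.5 and 1.06 ± 1.16 CPM (SD, n = 4, 5 and 5). It fell by 6.04 (SE 1.34) in arthritis, with an edgeR adjusted p of 0.0124. Tpm2, a tropomyosin, was at 64.04 ± 28.7, 86.8 ± 69.9 and 16.0 ± 8.53 CPM (SD, n = 4, 5 and 5), with an edgeR adjusted p of 0.0636 in arthritis. The list's median was -2.41 in arthritis and -2.79 against non-immunized CD200+ cells. Between the CD200+ groups no gene of the list passed with edgeR or limma voom, 2 had an unadjusted p under 0.05, and DESeq2 called 1, Tpm1.

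The regulators of these genes were measured at low levels. Srf was at 20.8 ± 12.6, 35.9 ± 22.3 and 9.16 ± 6.40 CPM in non-immunized CD200+, arthritic CD200+ and CD105+ cells (SD, n = 4, 5 and 5). In arthritis its log2 difference was -1.97 (SE 0.749, edgeR adjusted p = 0.104). Its cofactors Mrtfb and Mrtfa did not pass either (edgeR adjusted p = 0.222 and 0.744 in arthritis), and Myocd, the cofactor of smooth muscle, had counts in library 3 only. None of the 3 regulators tested passed with edgeR in any comparison. In arthritis 1 of them had an unadjusted p under 0.05, DESeq2 called 1 (Srf) and limma voom 2 (Srf and Mrtfb), all lower in CD105+ cells. DESeq2 and limma voom also called more of all genes than edgeR. Against non-immunized CD200+ cells DESeq2 called 1 (Mrtfb), and limma voom called 0, as did edgeR at an unadjusted p under 0.05. All of these counts were 0 between the CD200+ groups.

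Among the PDGF ligands and the alpha receptor, 4 of 5 genes were tested. Pdgfa, a ligand of the alpha receptor, was at 164 ± 89.8, 109 ± 72.3 and 7.36 ± 7.84 CPM in non-immunized CD200+, arthritic CD200+ and CD105+ cells (SD, n = 4, 5 and 5). It fell by 3.88 on the log2 scale in arthritis (SE 1.10, edgeR adjusted p = 0.0365) and by 4.47 against non-immunized CD200+ cells (edgeR adjusted p = 0.0214). Pdgfc, another ligand, was at 41.8 ± 41.7, 28.3 ± 19.4 and 1.59 ± 1.48 CPM (SD, n = 4, 5 and 5), and was lower in CD105+ than in non-immunized CD200+ cells (edgeR adjusted p = 0.0366), while its edgeR adjusted p was 0.0554 in arthritis. Whether these differences differ from each other was not tested. None of the 4 passed between the CD200+ groups with edgeR, DESeq2 or limma voom, and none had an unadjusted p under 0.05. Pdgfra, the alpha receptor of mesenchymal cells, was at 91.8 ± 84.8, 36.1 ± 26.9 and 26.5 ± 14.4 CPM (SD, n = 4, 5 and 5), with a log2 difference of -0.44 in arthritis (SE 0.874, edgeR adjusted p = 0.811). Pdgfb, which encodes a ligand of PDGFRB, had counts in 1 library of each group. Pdgfd, another PDGF ligand, was at 37.5 ± 26.7, 6.43 ± 9.37 and 7.795 ± 10.15 CPM (SD, n = 4, 5 and 5). It did not pass with edgeR in arthritis (adjusted p = 0.936) or against non-immunized CD200+ cells (adjusted p = 0.334), while limma voom called it lower in the latter.

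Single libraries carried several of the 10 genes together. Library 7 had counts for all 10 and was the highest arthritic CD200+ library for 5 of them (Pdgfrb, Rgs5, Mcam, Cspg4 and Cnn1). It also had the highest summed skeletal muscle list of its group (1416 CPM). Library 13 was the highest CD105+ library for 6 genes (Pdgfrb, Rgs5, Acta2, Mcam, Tagln and Kcnj8), and library 3 the highest non-immunized library for 4 (Acta2, Myh11, Mcam and Tagln). At the other end, library 10 had counts for Cspg4 alone and library 12 for Cspg4 and Pdgfrb alone.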

How the data were processed

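RNA of 14 sorted samples in 3 groups was amplified with SMART-Seq v4 and sequenced as Nextera XT libraries with ERCC spike-ins, per the labels. The tools cutadapt, HISAT2, StringTie and edgeR are listed, without roles, with the build GRCm38, per the submitters' processing notes. The authors deposited raw counts per gene; a further deposited table, named as normalized and filtered, held 14322 entries identical to those counts and was read only for that comparison. Of 47821 entries, 92 were spike-ins and were left out of library sizes. Symbols for 47224 genes and exon lengths came from GENCODE M21.

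Counts were analysed in edgeR 4.0.16 (R 4.3.3) with TMM scaling, filterByExpr with a minimum count of 10, 1 quasi-likelihood fit of all 14 libraries (common biological coefficient of variation 1.28), two-sided tests and Benjamini-Hochberg adjustment over 15015 genes at 0.05. The procedure was tested on simulated data. The comparisons share groups. Alternatives were other scalings and filters, only the groups compared, DESeq2 1.42.0, limma 3.58.1 (voom with sample weights) and leaving out libraries.

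The 10 genes and the companion lists were chosen with earlier results of these data known. All 10 genes were described, and of each companion list the 3 genes with the smallest p between CD105+ and CD200+ cells in arthritis were named. Further names (Tpm1, Cnn2, Anpep, Cox4i2, Tbx18, Myocd, Pdgfb, Pdgfd and the markers of other cell types) were chosen after their values were seen. Likeness was measured by Pearson correlation of log2(CPM + 1) over the 9 CD200+ libraries. Folds against a group at 0 use a limit of 3 counts over that group. Limits from counts ignore amplification, as no molecular identifiers are named in the labels.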

Additional observations from a re-analysis of the deposited data

Results flagged for a closer look

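Of 27 sets of values (1 gene in 1 group) examined for a library far from the others of its group, 8 stood out, in 7 genes. The limit used flags about 1 in 20 sets of normally distributed values. CPM that are skewed and end at 0 are not such values, so the number flagged cannot be weighed against chance. In all 8 the library that stood apart was the highest. In the arthritic CD200+ group Rgs5 was at 198 CPM in library 7, with the next library at 47.5 CPM. Cnn1 was at 8.19 CPM in the same library and at 0 in the other 4, and Myh11 was at 39.7 CPM in library 9, with the next at 11.3 CPM. In the non-immunized CD200+ group Myh11 was at 50.2 CPM in library 3, with the next at 6.02 CPM. In the CD105+ group library 13 stood apart for Acta2 (152 CPM, next 8.60), for Mcam (41.9 CPM, next 5.14) and for Kcnj8 (3.52 CPM, next 0.896). Cspg4 stood apart in library 12, at 39.4 CPM with the next at 12.9 CPM.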

How the results depend on the processing

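No paired analysis was possible because the replicate numbers run from 1 to 14 over the series and no groups share a number. For the 9 genes tested, 458 log2 differences were recomputed under alternatives. Of these, 408 kept their direction and side of the threshold, 15 lost the call, 23 gained one and 12 changed sign. Cnn1, not tested in the main fit, is not among them. For arthritic against non-immunized CD200+ cells, 343 genes were called by DESeq2, 4 by limma voom and 0 to 2 when 1 library was left out (2 without library 3), and 0 of the 10 genes throughout. For CD105+ against CD200+ cells in arthritis, 545 genes were called with spike-in library sizes, 3538 by DESeq2, 4624 by limma voom and 1090 to 1713 without 1 library (1090 without library 14), against 1692. Of the 10 genes, 2 were called, and 0 with spike-in library sizes, 1 without the low-count filter, 1 from only the groups compared, 4 by DESeq2 (Des, Tagln, Myh11 and Pdgfrb), 5 by limma voom (also Acta2) and 1 to 3 without 1 library. For CD105+ against non-immunized CD200+ cells, 278 genes were called with spike-in library sizes, 4060 by DESeq2, 4993 by limma voom and 1308 to 1762 without 1 library (1308 without library 14), against 1982. Of the 10 genes, 1 was called, and 2 with RLE size factors, 0 with spike-in library sizes, 3 with the strict filter, 4 by DESeq2, 5 by limma voom, 3 without the 3 libraries over 80% spike-ins and 1 to 4 without 1 library (4 without library 13, 2 without library 2).

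Spike-in scaling moved the median log2 difference of all genes from -0.05 to 1.22 in arthritis and from -0.24 to 1.21 against non-immunized cells. RLE scaling moved the latter to -0.50. Higher calls made up 42.5% of calls in arthritis, 71.6% with spike-in scaling and 52.5% from only the groups compared; against non-immunized cells they made up 42.2%, 60.1% and 53.8%, and 31.9% with RLE size factors. In arthritis, Tagln had edgeR adjusted p of 0.235 with spike-in scaling, 0.0769 without the filter, 0.0747 from only the groups compared and 0.0924 without the libraries over 80% spike-ins. The sign changes between the CD200+ groups were those of Des (0.42 with spike-in scaling, 0.81 with limma voom, 0.63 without the libraries over 80% spike-ins, 0.28 without library 2), Myh11 (0.54 with limma voom, 1.89 without library 3) and Rgs5 (-0.92 without library 7). In arthritis they were those of Rgs5 (0.15) and Mcam (0.47) without library 7. Against non-immunized cells they were those of Rgs5 (0.34 with spike-in scaling) and Mcam (-1.82 with limma voom, -2.36 without library 13). When 1 library was left out, these differences ran, between the CD200+ groups, from -0.91 to 0.28 for Des, from -2.36 to 1.89 for Myh11 and from -0.92 to 1.24 for Rgs5. In arthritis they ran from -3.01 to 0.15 for Rgs5 and from -3.76 to 0.47 for Mcam, and against non-immunized cells from -2.36 to 2.25 for Mcam. The cause was not tested. The shallowest libraries limit the low genes most: 3 counts were 0.910 CPM in library 6.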

Other observations

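The calponin family was split between its members. Cnn1 had counts in 1 library, whereas the level of Cnn3 was 272 ± 410 CPM in CD200+ cells without immunization (SD, n = 4), 231 ± 162 CPM in arthritic CD200+ cells and 36.1 ± 27.7 CPM in CD105+ cells (SD, n = 5 each). Library 2 held 81.3% of the non-immunized Cnn3 signal, and the mean of that group without it was 67.8 CPM. Cnn2 was at 194 ± 125, 58.5 ± 52.5 and 12.9 ± 9.93 CPM in non-immunized CD200+, arthritic CD200+ and CD105+ cells. The log2 difference of Cnn2 between CD105+ and non-immunized CD200+ cells was -3.90, with an edgeR adjusted p of 0.0461. Abcc9 encodes SUR2, the subunit that pairs with Kir6.1 of Kcnj8. It was at 43.1 ± 43.4, 45.7 ± 41.7 and 1.88 ± 1.93 CPM (SD, n = 4, 5 and 5), with an edgeR adjusted p of 0.0714 in arthritis.

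Among the 9 CD200+ libraries, 6 of the 10 genes had counts in at least 6 and could be compared with 9182 other genes. These correlations are descriptions over 9 libraries that share groups and differ in depth, and the genes named are the closest of many. Rgs5 and Cspg4 were the closest pair of the 6 (r = 0.83, rho = 0.85), while the order of the next pairs depended on the measure. By r it was Acta2 and Tagln (r = 0.64, rho = 0.38), and by rho Pdgfrb and Cspg4 (r = 0.50, rho = 0.65). Rgs5 and Tagln ran the other way (r = -0.50, rho = -0.43). The genes whose levels ran closest to Des were Eef2 (r = 0.96, rho = 0.98, and r = 0.97 without 2 libraries), Fxyd6 and Psmc3. For Acta2 they were Ranbp1 (r = 0.94, rho = 0.90, and r = 0.90 without 2 libraries), S100a16 and Nhp2. For Cspg4 they were Mcee (r = 0.99, rho = 0.90, and r = 0.84 without 2 libraries), Ifngr2 and Susd6. For Pdgfrb they were 2310022B05Rik (r = 0.98), Golt1b and Efnb1, for Rgs5 Akirin2 (r = 0.92), Dnm1l and Peak1, and for Tagln Plgrkt (r = 0.94), Nabp2 and Vamp8. No further mural cell gene of the lists was among these closest genes.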
